A study of Mus musculus with 2 samples.

Results

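Proliferating connective cells of the mouse rib callus were examined at 4 days after resection of a 3 mm rib segment. They were selected by 5 or more summed UMIs (unique molecular identifiers, each standing for 1 captured transcript) of Birc5, Cdk1, Ube2c and Ccna2, in cells that passed a connective gate. The gate required at least 1000 UMIs, under 10% mitochondrial UMIs, at least 1% of UMIs from Col1a1, Col1a2 and Col3a1 together, and 0 UMIs of Ptprc, Pecam1, Myog and Rgs5. The rule took 2118 of 21259 barcodes, namely 1147 of 10747 in the control library and 971 of 10512 in the Smo cKO library. The comparison cells passed the same gate with 0 UMIs of the 4 genes and numbered 2758 in control and 1611 in Smo cKO.

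Both libraries came from mice carrying Sox9:CreER, in which the Sox9 promoter drives a tamoxifen-inducible Cre, and the R26:tdT reporter. Control animals were Smo f/+ and Smo cKO animals were Smo f/f, so 1 floxed allele was also present in the controls, and Smo was deleted only in cells with Cre activity from Sox9. Mice of 8 to 12 weeks received tamoxifen from day -7 to day -5 before injury, and calluses of 3 animals of each genotype were pooled into 1 library. With 1 library for each genotype, genotype, pool and library cannot be told apart, and no difference between the libraries has a replicate check. Ratios are therefore given with exact 95% counting intervals, which cover counting error only.

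A dividing cell first licenses its replication origins, copies its DNA in S phase, and then condenses and separates the chromosomes on a microtubule spindle in mitosis. E2F factors are known to drive genes of DNA replication, whereas the MuvB complex with B-Myb and FoxM1 is known to drive mitotic genes through the cell cycle homology region (CHR), often beside CCAAT boxes bound by NF-Y. Among the 4 genes of the rule, Cdk1 is the kinase that starts mitosis, and Ccna2 encodes its partner cyclin A. Birc5 encodes survivin of the chromosomal passenger complex, and Ube2c encodes the enzyme that carries ubiquitin for the anaphase-promoting complex. In a fracture callus, connective cells that enter the wound are known to multiply before cartilage and bone are laid down.

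The promoters of these genes differ in the elements they hold. The windows below cover the 200 bases before the annotated start of 3 genes of the rule, of 2 further mitotic genes (Top2a and Cdc20) and of Mcm5, a helicase subunit of S phase. They were taken from RefSeq on GRCm38.p6 and are written 5′ to 3′ on the strand of the gene. Capitals mark matches, on either strand, to the CHR (TTTGAA or TTCGAA), the CCAAT box (CCAAT) and the E2F site (TTTGGCGC, TTTCCCGC, TTTGCCGC or TTTCGCGC), and overlapping matches run together.
Birc5 (chr11:117849037-117849236, plus strand): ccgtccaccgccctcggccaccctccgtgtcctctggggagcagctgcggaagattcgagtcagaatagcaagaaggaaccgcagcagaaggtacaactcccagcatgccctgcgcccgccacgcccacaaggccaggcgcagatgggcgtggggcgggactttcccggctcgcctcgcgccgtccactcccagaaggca
Cdk1 (chr10:69352913-69353112, minus strand): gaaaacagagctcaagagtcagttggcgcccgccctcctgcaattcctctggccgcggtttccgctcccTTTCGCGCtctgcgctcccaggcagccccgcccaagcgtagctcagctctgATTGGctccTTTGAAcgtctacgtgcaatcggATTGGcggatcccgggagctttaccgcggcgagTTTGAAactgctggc
Ube2c (chr2:164769729-164769928, plus strand): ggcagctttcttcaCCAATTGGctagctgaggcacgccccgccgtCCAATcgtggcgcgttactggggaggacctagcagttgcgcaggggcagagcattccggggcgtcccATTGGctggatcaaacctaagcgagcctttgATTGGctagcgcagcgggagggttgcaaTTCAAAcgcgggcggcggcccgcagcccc
Top2a (chr11:99024190-99024389, minus strand): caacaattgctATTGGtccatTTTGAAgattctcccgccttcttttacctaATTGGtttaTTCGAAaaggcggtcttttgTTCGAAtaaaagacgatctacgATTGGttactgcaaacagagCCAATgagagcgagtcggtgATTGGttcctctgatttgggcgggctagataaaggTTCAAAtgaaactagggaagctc
Cdc20 (chr4:118437344-118437543, minus strand): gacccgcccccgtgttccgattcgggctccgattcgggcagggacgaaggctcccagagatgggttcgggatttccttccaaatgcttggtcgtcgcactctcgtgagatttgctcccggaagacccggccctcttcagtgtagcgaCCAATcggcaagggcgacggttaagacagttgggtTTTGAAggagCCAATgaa
Mcm5 (chr8:75109309-75109508, plus strand): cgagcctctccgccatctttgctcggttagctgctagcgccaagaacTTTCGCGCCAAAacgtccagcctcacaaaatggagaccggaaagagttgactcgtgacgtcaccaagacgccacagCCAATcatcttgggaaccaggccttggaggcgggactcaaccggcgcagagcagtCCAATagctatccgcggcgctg

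The Cdk1 window held 2 CHR matches, at -71 and -15 from the start, along with CCAAT matches and an E2F site at -131. The Ube2c window held a CHR at -29, and the Top2a window held 4 CHR matches among repeated CCAAT boxes. The Mcm5 window held a pair of overlapping E2F sites and no CHR. The Birc5 window held none of these letters. Over a set of 15 mitotic genes (Ccnb1, Ccnb2, Plk1, Cdc20, Cenpf, Cenpe, Cenpa, Aurka, Hmmr, Tpx2, Ckap2, Kif20a, Kif23, Prc1 and Nusap1), 13 had a window of 250 bases before to 50 after the start, of which 10 (76.9%) held a CHR, 12 (92.3%) a CCAAT box and 0 an E2F site. Over a set of 15 S-phase genes (Mcm2 to Mcm7, Pcna, Tyms, Rrm2, Gins2, Lig1, Fen1, Uhrf1, Hells and Cdc6), 13 had a window, of which 3 (23.1%) held a CHR, 8 (61.5%) a CCAAT box and 6 (46.2%) an E2F site. Of all 27025 promoters in the table, 19.5% held a CHR, 38.0% a CCAAT box and 2.33% an E2F site. These letter matches describe the windows and are not measured binding.

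**Figure D1:**
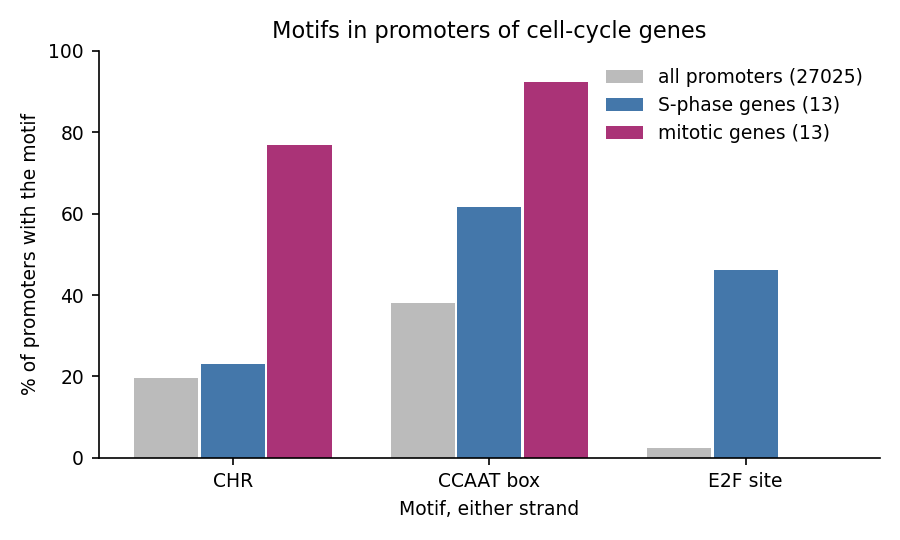
Percent of promoter windows (250 bases before to 50 after the start) that hold a CHR, a CCAAT box or an E2F site on either strand, for all 27025 promoters in grey, 13 S-phase genes in blue and 13 mitotic genes in purple. CHR matches were in 76.9% of the mitotic windows, and E2F sites were in 46.2% of the S-phase windows and in none of the mitotic ones.

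The libraries held 105367110 UMIs in control and 112700220 in Smo cKO, with a median of 7743 and 7702.5 UMIs for each barcode. Proliferating cells were deep, at a median of 20122 UMIs and 4076 detected genes in control and 21012 UMIs and 4176 genes in Smo cKO. Comparison cells had medians of 8493 UMIs and 2261 genes in control and 9418 UMIs and 2539 genes in Smo cKO. A rule that needs 5 UMIs takes deep cells more readily. More RNA in a dividing cell, deeper capture of the droplet and several connective cells in a droplet cannot be told apart here. Only 16 control and 11 Smo cKO proliferating cells had 2000 or fewer detected genes.

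A total of 613 barcodes occurred in both libraries. In 486 of them, the UMIs on the lower side were under 5% of those on the higher side, with a median of 1.65%. The lower-side profile was most like that of its own partner in 86.4% of such control barcodes and 67.6% of such Smo cKO barcodes. None of the lower-side barcodes was a proliferating or comparison cell. Barcodes found in both libraries made up 6.36% of the proliferating cells in control and 12.2% in Smo cKO, against 1.34% and 1.43% of the comparison cells. Without them the proliferating share was 20.4% in control and 22.9% in Smo cKO, and the Smo cKO excess was 2.51 percentage points (0.783 to 4.25) in place of 3.68 (1.95 to 5.42).

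The label of connective cells was checked against Postn, Dcn, Lum, Prrx1, Pdgfra and Pdgfrb, none of which the gate used. All 6 were above 50 CPM (UMIs per 1000000 UMIs of the summed cells) in the proliferating cells of both libraries. Postn, a matricellular protein of callus and periosteum, was at 1859 CPM in control and 2024 CPM in Smo cKO. Prrx1, a transcription factor of limb and periosteal mesenchyme, was at 252 and 264 CPM. Transcripts of other cell types ranged from under 1 CPM to the level of the connective markers. Of the endothelial markers, Cdh5 was at 0.577 CPM in control and 0.600 CPM in Smo cKO, and the 4 markers summed to 3.13 and 4.47 CPM, with Kdr the most abundant. T cell and B cell markers each summed to under 1 CPM. The 6 macrophage markers summed to 122 CPM in control and 138 CPM in Smo cKO, led by Lyz2, against 138 and 218 CPM in comparison cells. Among cells of 10000 to 20000 UMIs the log2 ratio of Lyz2 over comparison cells was 0.43 (0.27 to 0.59) in control and -0.79 (-0.94 to -0.64) in Smo cKO, and against depth-matched cells 1.04 and -0.95. The 3 neutrophil markers summed to 31.7 and 46.6 CPM, against 43.5 and 96.1 CPM, and the 4 mural markers to 33.97 and 30.3 CPM, against 43.2 and 36.4 CPM. S100a8, the most abundant neutrophil marker, had log2 ratios of 0.94 (0.67 to 1.22) and 0.27 (-0.01 to 0.55) at 10000 to 20000 UMIs. Against depth-matched cells its ratios were 0.72 (0.16 to 1.35) and -0.09 (-0.45 to 0.29). The 5 satellite cell or myoblast markers summed to 32.5 and 47.0 CPM, led by Des, against 22.4 and 39.9 CPM in comparison cells, and Des was at log2 ratios of -0.30 and -0.73 at 10000 to 20000 UMIs. Globin transcripts of red cells reached 520 and 859 CPM, against 1628 and 1061 CPM in comparison cells. Against depth-matched comparison cells the log2 ratio of Hbb-bs, the most abundant globin, was -1.86 in control and 1.62 in Smo cKO, and at 10000 to 20000 UMIs -1.96 and -0.13. Without cells that held a UMI of Cdh5, Pax7 or Myod1 or 5 of Tyrobp, a choice made after seeing the data, the Smo cKO excess in share was 3.55 percentage points (1.79 to 5.33). The part of globin and neutrophil transcripts was not tested apart from the other cell types.

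The genes of the rule were at nearly equal levels in both libraries, and as they chose the cells these values are a description. Birc5 (chr11:117849251-117855743 in GRCm38, plus strand) was at 306 CPM in control and 301 CPM in Smo cKO, with UMIs in 98.9% and 98.1% of the cells. Cdk1 (chr10:69335146-69352938, minus strand) was at 135 and 138 CPM. Ube2c (chr2:164769898-164778822, plus strand) was at 276 CPM in both libraries. Ccna2 (chr3:36564865-36572150, minus strand) was at 101 and 98.9 CPM. The summed UMIs of the 4 genes had a median of 13 in each library and reached 117 in control and 96 in Smo cKO. Just inside the threshold, 103 control and 93 Smo cKO cells had exactly 5 UMIs, at median depths of 15931 and 16100 UMIs. Just outside it, 123 and 120 cells had 4 UMIs, at median depths of 14992 and 15714 UMIs.

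Proliferating cells made up 21.2% of gated connective cells in control (1147 of 5419, exact binomial 95% interval 20.1 to 22.3%) and 24.8% in Smo cKO (971 of 3908, 23.5 to 26.2%). The share depended steeply on depth. In the control library it was 0.746% from 1000 to under 2500 UMIs, 3.66% from 5000 to under 10000, 23.0% from 10000 to under 20000 and 63.5% from 20000 to under 40000. In the Smo cKO library it was 0.641%, 5.62%, 22.6% and 58.7% in the same ranges. Of the 6 depth ranges, only that of 5000 to under 10000 UMIs had a higher share in Smo cKO. The Smo cKO library also had a larger part of its connective cells at 20000 to under 40000 UMIs, 21.3% against 15.9%. With both libraries weighted to the same distribution of depth, the share was 23.0% in control and 22.6% in Smo cKO, a difference of -0.462 percentage points in place of 3.68.

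**Figure D2:**
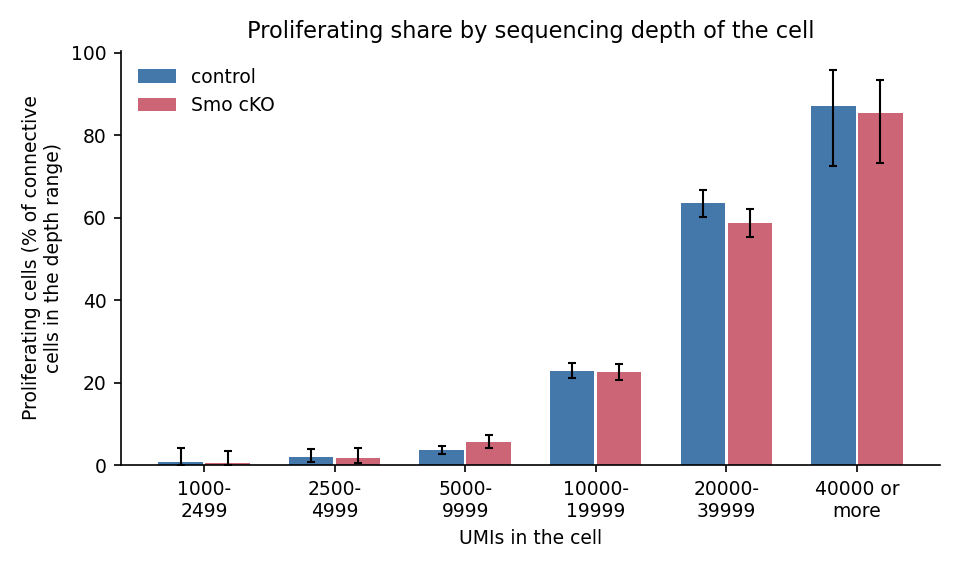
Percent of gated connective cells that were proliferating (y axis) by the UMIs of the cell (x axis), control in blue and Smo cKO in red, with exact binomial 95% intervals as bars. Shares in both libraries climb from under 1% in the shallowest cells to over 85% in the deepest. The share is higher in control at 20000 to under 40000 UMIs (63.5% against 58.7%) and higher in Smo cKO at 5000 to under 10000 (5.62% against 3.66%).

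Thinning every cell to 3000 UMIs gave a check at equal depth. It left out 192 control and 210 Smo cKO connective cells that were shallower, of which 1 in each library was a proliferating cell. After thinning, 2 or more UMIs of the 4 genes were held by 15.5% of the control cells (14.5 to 16.5%) and by 18.3% in the Smo cKO library (interval up to 19.6%), a difference of 2.77 percentage points (1.19 to 4.36). Neutrophils, which as mature cells do not divide, were examined for free RNA. Of these, 2 of 50 in control and 1 of 87 in Smo cKO had 5 or more UMIs of the 4 genes without thinning, but their median depths were only 1622 and 1843 UMIs. Among the 7 and 21 neutrophils deep enough to thin, 2 and 3 held 2 or more UMIs, so the background is poorly known. The same unthinned threshold was reached by 36.9% of 65 endothelial cells in control and 33.8% of 65 in Smo cKO, and by 25.8% and 33.2% of Myog-positive cells. Ptprc-positive cells with collagen under 1% reached it in 9.38% and 9.66%. After thinning, 2 or more UMIs were held by 15.7% and 14.3% of these Ptprc-positive cells. The thinned shares were 32.8% and 20.3% for endothelial cells and 13.1% and 20.3% for Myog-positive cells.

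Inside the proliferating cells, the S-phase and mitotic sets split the cells. The rule genes belong to late S phase to mitosis, so cells of early S phase are taken less readily. The sets were compared on raw UMIs without scaling. The mitotic set was the more abundant, at 991 CPM against 610 in control and 974 against 573 in Smo cKO. The split therefore depends on the genes listed and is not a measured share of each phase. In control, 439 cells (38.3%, 35.5 to 41.2%) had more UMIs of the S-phase set and 676 (58.9%, 56.0 to 61.8%) more of the mitotic set. In Smo cKO, 334 cells (34.4%, 31.4 to 37.5%) had more of the S-phase set and 619 (63.7%, 60.6 to 66.8%) more of the mitotic set. Cells with more S-phase UMIs had 107 CPM of Ube2c in control and 93.1 CPM in Smo cKO, whereas cells with more mitotic UMIs had 397 and 383 CPM. Cdk1 differed less between these cells, at 115 and 149 CPM in control and 111 and 154 CPM in Smo cKO. Few comparison cells held such transcripts in number: after thinning, 3 or more S-phase UMIs were found in 1.27% of control and 1.37% of Smo cKO comparison cells, against 27.5% and 25.8% of proliferating cells. Mitotic UMIs of 3 or more were found in 0.577% and 1.30% of comparison cells, against 45.5% and 46.7% of proliferating cells.

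Proliferating cells were then set beside the comparison cells across all genes. A gene was called when its level differed by at least 2-fold in the same direction in both libraries at 50 CPM or more. Of 2592 genes that reached this level, 94 (3.63%) were called higher, among them the 4 genes of the rule, and 49 (1.89%) were called lower. Since the cells were chosen by 4 cell-cycle genes, these differences describe the cells and are not tests. Of 212 further genes in 11 lists of cell division, 67 reached 50 CPM, of which 51 were called higher and 0 lower. At a floor of 5 CPM, 192 of 199 had a ratio whose 95% interval lay above 0 in both libraries and 0 lay below, where 29.5% of 9555 genes lay above and 20.5% below.

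**Figure D3:**
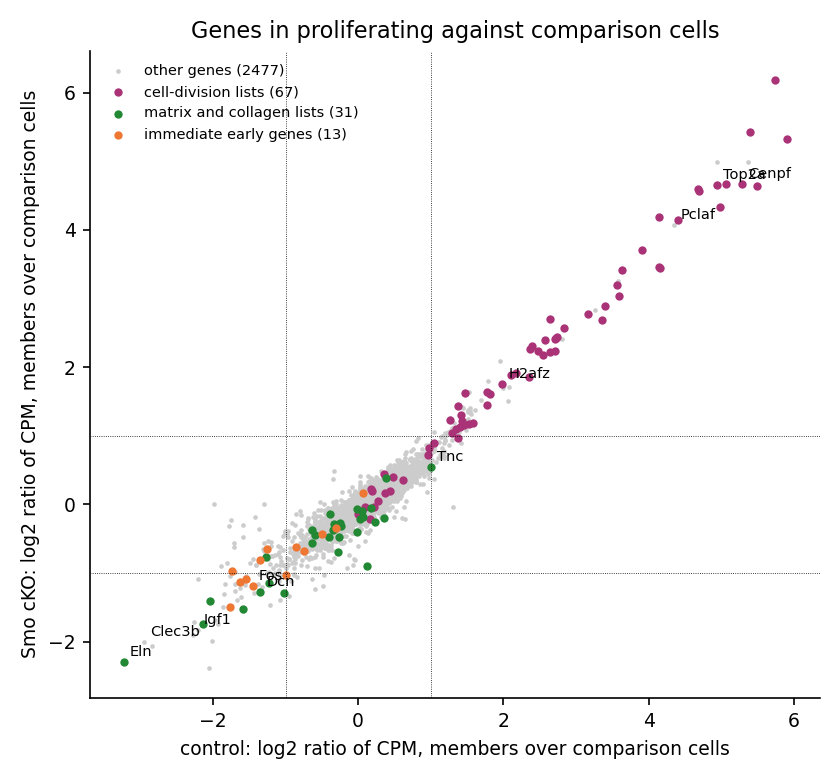
Log2 ratio of CPM in proliferating cells over comparison cells, control on the x axis and Smo cKO on the y axis, for genes at 50 CPM or more in either set of cells of each library, with the 4 genes of the rule left out. Purple points are genes of the cell-division lists, green of the matrix and collagen lists and orange immediate early genes, and dotted lines mark a 2-fold difference. Cell-division genes run along the diagonal up to log2 ratios of about 6, and Eln is the lowest point in control.

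Replication genes came first. All 19 genes of origin licensing and the replicative helicase had intervals above 0 in both libraries. Gmnn, which encodes geminin and blocks relicensing of origins, was at 57.3 CPM in control and 55.3 CPM in Smo cKO proliferating cells, against 5.60 and 8.58 CPM in comparison cells, log2 ratios of 3.36 and 2.69. Gins2, a subunit of the helicase, had ratios of 2.35 and 1.85. Mcm5 was at 34.5 and 30.8 CPM against 5.06 and 5.56 CPM, ratios of 2.77 and 2.47. Cdt1, which loads the helicase and is destroyed in S phase, had the smallest ratios of the list at 0.97 and 0.70. All 23 measured genes of the polymerases and the replication fork lay above 0, with Lig1, the ligase that joins Okazaki fragments, at 2.54 and 2.18 and Pcna, the sliding clamp, at 1.55 and 1.25. Of the enzymes that make nucleotides, Rrm2, a subunit of ribonucleotide reductase, had ratios of 3.57 and 3.20 and Tyms, thymidylate synthase, 2.74 and 2.44. Impdh2, an enzyme of guanine nucleotide synthesis, had ratios of only 0.48 and 0.40.

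Chromatin genes held the most UMIs of the cell-division lists, at a summed 3547 CPM in control and 3582 CPM in Smo cKO. H2afz, which encodes the histone variant H2A.Z, was at 1549 CPM in control and 1510 CPM in Smo cKO, against 392 and 450 CPM in comparison cells, log2 ratios of 1.98 and 1.75. Hmgb2, a DNA-bending protein, had ratios of 2.73 and 2.43, and its relative Hmgb1 1.29 and 1.04. Of the genes outside every list, the highest began with Hist1h1b, a linker histone, at ratios of 5.37 and 4.99, Hist1h2ap at 4.94 and 4.99, and Pclaf, a partner of the sliding clamp, at 4.35 and 4.07. Cdca3, a mitotic entry factor (3.58 and 3.26), and Hist1h1e (3.26 and 2.83) came next. Hist1h2ap belongs to a family of near-identical histone gene copies, so its level is uncertain where reads fit several copies. Other genes among the 10 highest were the noncoding RNA Lockd (2.81 and 2.41), Rangap1, the GTPase activator of Ran (1.96 and 2.09), Ccdc34 (2.09 and 1.87), Hmgb3 (2.08 and 1.71) and Exosc8, an exosome subunit (1.99 and 1.70).

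Mitotic genes included some of the highest ratios, and the cells were themselves chosen by late S-phase to mitotic genes. Top2a, the topoisomerase that untangles sister chromatids, was at 209 CPM in control and 199 CPM in Smo cKO, against 6.79 and 7.91 CPM, log2 ratios of 4.94 (95% interval 4.72 to 5.17) and 4.65 (4.40 to 4.92). Mki67, the coat of mitotic chromosomes, was at 66.7 and 65.1 CPM, against 3.78 and 3.56 CPM. Its ratios were 4.14 and 4.19. All 21 measured kinetochore genes lay above 0 in both libraries. Cenpa, the histone of the centromere, was at 215 and 213 CPM with ratios of 3.59 and 3.03, and Cenpf at 78.6 and 73.3 CPM with ratios of 5.29 and 4.66. Of the spindle genes, Tuba1b, an alpha-tubulin found in all cells, was at 1094 and 1199 CPM with ratios of 2.17 and 1.91, whereas Prc1, which bundles the central spindle, had 4.40 and 4.14. Among kinases and cyclins, Cks1b and Cks2, small subunits of CDK complexes, led in level at 368 and 299 CPM in control and 360 and 361 CPM in Smo cKO. Cdca8, the borealin subunit of the complex that holds survivin, had ratios of 4.68 and 4.59. Ccnb1, cyclin B1, was at 59.2 and 61.7 CPM against 2.28 and 2.60 CPM.

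The anaphase-promoting complex and cytokinesis lists did not move as 1 group. Ube2s, which lengthens ubiquitin chains on substrates of the complex, was at 953 and 983 CPM with ratios of 1.78 and 1.63. Cdc20, the mitotic activator of the complex, had 4.16 and 3.45. The core subunit Anapc13 was at 138 and 151 CPM against 139 and 166 CPM, ratios of -0.00 in control and -0.14 in Smo cKO. Of cytokinesis genes, Anln (anillin) had ratios of 4.31 and 3.99 and Cep55 5.34 and 4.95, but Rhoa, Sept7, Chmp4b and Chmp2a, which also act outside division, lay between -0.21 and 0.37. None of the 5 cytokinesis genes at 50 CPM or more was called.

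G1 cyclins differed less than mitotic ones. Cdk4, the kinase that starts phosphorylation of Rb, was at 233 and 239 CPM with ratios of 0.74 and 0.44, and 0 of 3 tested genes of its list was called. Ccne2, cyclin E2, had ratios of 1.59 and 1.40 at 17.3 and 13.2 CPM. Ccnd2, cyclin D2, went the other way at -0.27 and -0.42. Among CDK inhibitors the INK4 genes Cdkn2d (2.07 and 1.50) and Cdkn2c (1.61 and 1.43) were higher in proliferating cells. Cdkn1c, which encodes p57, was lower, at 23.0 CPM in control and 30.3 CPM in Smo cKO against 80.3 and 54.7 CPM, ratios of -1.80 and -0.85. Cdkn1a, which encodes p21, was at 236 CPM in control and 186 CPM in Smo cKO proliferating cells and at 190 and 212 CPM in comparison cells, so that its ratio was 0.32 in control and -0.19 in Smo cKO. At 10000 to 20000 UMIs the ratios were 0.03 (-0.06 to 0.12) and -0.22, and against depth-matched cells -0.40 and -0.90. The positive ratio in control was thus not kept in either check. Of the transcription factors of this list, Mybl2 (B-Myb) had ratios of 3.74 and 3.31 and Foxm1 3.31 and 3.84. E2f1 had ratios of 1.62 and 1.37, whereas Rb1 was level at 0.08 and 0.02.

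The list of p53 and quiescence genes was mixed. Of 10 measured members, 4 had intervals below 0 in both libraries and 1 above, and 3 of 7 tested (Gas6, Gas1 and Btg2) were called lower. Over all genes 20.5% lay below 0 and 29.5% above, and 1.89% of tested genes were called lower. Gas6, a growth-arrest-specific ligand of TAM receptors, was at 43.2 CPM in control and 42.1 CPM in Smo cKO, against 174 and 168 CPM, log2 ratios of -2.01 and -1.99. Gas1, another growth-arrest-specific gene that also encodes a Hedgehog co-receptor, had ratios of -1.36 and -1.01, and the antiproliferative gene Btg2 -1.38 and -1.16. Trp53, which encodes p53, went the other way at 0.58 and 0.33. Of 5 members tested at 10000 to 20000 UMIs only Gas6 was called lower, where 17 of all 2538 tested genes were, and Btg2 was at -1.30 and -0.78. Immediate early genes, which respond to stimuli and to cell dissociation, were also lower. Of 13, 12 had intervals below 0 in both libraries, and 4 (Fos, Fosb, Nr4a1 and Klf2) were called lower. Fos was at 129 CPM in control and 240 CPM in Smo cKO, against 351 and 547 CPM. Only Ier3 was higher, at 0.07 and 0.17. None of the 13 was called among cells of 10000 to 20000 UMIs, where their medians were -0.84 and -0.37.

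Most genes of the list of small proteoglycans and other matrix were lower. Of 21 measured, 16 had intervals below 0 in both libraries and 1 above, where 20.5% and 29.5% of all genes did. Of the 19 tested, 5 were called lower and 0 higher, where 1.89% of all tested genes were called lower. Eln, which encodes elastin, was at 63.7 CPM in control and 151 CPM in Smo cKO proliferating cells, against 596 and 745 CPM in comparison cells, with log2 ratios of -3.23 (-3.30 to -3.15) and -2.30 (-2.36 to -2.25). Mfap4, an elastic fibre protein, had ratios of -2.14 and -1.74. Of the small leucine-rich proteoglycans, Dcn (decorin) was at 656 and 773 CPM against 1669 and 1872 CPM, Lum (lumican) had ratios of -1.02 and -1.29, and Ogn (osteoglycin) -1.58 and -1.52. Sparc, Postn and Fn1 differed little, with ratios between -0.38 and 0.06. Tnc, a matrix protein of injured and growing tissue, was at 1062 and 1093 CPM against 530 and 751 CPM, ratios of 1.00 and 0.54. Against depth-matched cells the ratios of Tnc were smaller, at 0.44 and 0.17. Of 16 collagens that the gate did not use, 5 lay below 0 in both libraries and 1 above. Of the 12 tested, 2 were called lower, where 1.89% of all tested genes were. These were Col14a1 (-2.04 and -1.41) and Col15a1 (-1.23 and -1.15). The fibrillar Col5a1 and Col5a2 had ratios between -0.31 and -0.24. Timp1, an inhibitor of matrix proteases, was higher at 0.85 and 0.47 but was not called. Against depth-matched cells its ratios were 0.35 in control and -0.00 (-0.05 to 0.04) in Smo cKO, so the Smo cKO difference was not kept there. Igf1, the only secreted growth factor called lower, was at 96.6 and 133 CPM against 449 and 472 CPM, ratios of -2.21 and -1.83. Outside every list, the lowest were Clec3b, which encodes tetranectin (-2.95 and -2.01), the selenium carrier Selenop (-2.27 and -1.91), the complement protease C1s1 (-2.26 and -1.72), the elongation factor Tcea3 (-1.93 and -1.75), the matrix protein Abi3bp (-1.97 and -1.68), Fxyd1, a regulator of the sodium pump (-1.86 and -1.50), the pentraxin Ptx3 (-2.20 and -1.08), cytoglobin Cygb (-1.85 and -1.31), the spondin Spon1 (-1.58 and -1.55) and the aminopeptidase Anpep (-1.58 and -1.52).

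Median log2 ratios of the receptor, protease and lineage factor lists lay between -0.65 and 0.05. The counts that follow are to be read beside the 29.5% of all genes with intervals above 0 in both libraries and the 20.5% below. Of 14 measured growth factor receptors, 11 had intervals below 0 in both libraries and 0 above, but none of 9 tested was called. Fgfr1 was at 277 CPM in control and 278 CPM in Smo cKO, against 404 and 332 CPM in comparison cells, and Pdgfrb was level at ratios of 0.03 and -0.04. Of 19 matrix proteases and inhibitors, 14 lay below 0 and 3 above. Of the 14 tested, 1 was called lower, where 1.89% of all tested genes were. The list medians were -0.56 in control and -0.65 in Smo cKO, and Mmp14, a membrane collagenase, was at -0.20 and -0.35. Of 20 genes of collagen folding and crosslinking, 12 lay above 0 and 3 below, with the collagen chaperone Serpinh1 at 0.41 and 0.12. Of 18 skeletal transcription factors, 1 lay above 0 and 5 below, and none of 7 tested was called.

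Genes of ribosome biogenesis and glycolysis gave small ratios, and none of the 10 and 12 tested was called. Of 17 measured ribosome biogenesis genes, 14 lay above 0 in both libraries, where 29.5% of all genes did, with Npm1, nucleophosmin, at 1944 and 1848 CPM and ratios of 0.64 and 0.55. Gnl3, another nucleolar gene, went against its list at -0.24 and -0.04. Of 17 glycolysis genes, 12 lay above 0, with Gapdh at ratios of 0.66 and 0.50. The median over all 2592 tested genes was 0.20 in control and 0.08 in Smo cKO, which is to be read beside these small ratios.

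Depth changed this picture for the genes that were lower. Both sets of cells were limited to 10000 to 20000 UMIs, a choice made after seeing the data, which kept 486 proliferating and 909 comparison cells in control and 377 and 619 in Smo cKO. Depth was narrowed but not made equal, as proliferating cells of the band were still deeper. Their medians were 16199 UMIs against 12670 in control and 15969 against 12835 in Smo cKO. Genes called higher then numbered 86, of which 81 were among the 94, whereas genes called lower numbered only 17, of which 16 were among the 49. Comparison cells drawn to match the depth of the proliferating cells, 104 in control and 115 in Smo cKO, gave 79 higher and 13 lower. In the 10000 to 20000 UMI band Top2a kept log2 ratios of 5.09 and 4.96 and H2afz 1.88 and 1.86. Eln was still lower by the 2-fold rule, with ratios of -2.35 and -1.81, as were Igf1 (-1.77 and -1.39), Gas6 (-1.85 and -1.65), Mfap4 (-1.90 and -1.46), Ogn (-1.27 and -1.24) and Selenop (-1.58 and -1.33). Dcn (-0.86 and -0.99), Lum (-0.28 and -0.68), Col14a1 (-1.47 and -0.93), Col15a1 (-0.58 and -0.39), Fos (-1.25 and -0.81), Gas1 (-0.96 and -0.66), Clec3b (-1.89 and -0.65), Ptx3 (-1.43 and -0.30), Cygb (-1.73 and -0.93) and Fxyd1, at the 2-fold limit in Smo cKO, were no longer called. The depth-matched cells differed in some of these calls, since Cygb (-1.47 and -1.07), Fxyd1 (-1.06 and -1.18) and Btg2 (-1.31 and -1.14) were called lower against them and Ogn (-0.95 and -1.19) was not. The list of small proteoglycans and other matrix had medians of -0.35 and -0.29 in the band, where 3 of 20 tested genes were called lower. Of all 2538 genes tested in the band, 17 were called lower, and the medians over them were 0.11 in control and 0.05 in Smo cKO. Of the matrix genes that were higher, Tnc had ratios of 0.51 and 0.36 in the band and Timp1 0.52 and 0.24. In the band, Gapdh had ratios of only 0.28 and 0.14. The glycolysis medians were 0.23 and 0.04 in the band, and those of ribosome biogenesis 0.42 and 0.38.

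The callus holds several connective programmes, and each was asked for in the proliferating cells. A cell was counted as positive with 3 or more UMIs of the markers after thinning to 3000 UMIs. The marker sets were drawn from earlier results of these libraries, and the programme of Sfrp4, Eln, Col14a1 and Pi16 shares its genes with the list above. This programme was found in 10.8% of proliferating cells in control (9.08 to 12.8%) and 19.1% in Smo cKO (16.6 to 21.7%), against 55.5% and 50.0% of comparison cells. In the band of 10000 to 20000 UMIs the shares were 10.7% and 21.5% against 37.6% and 39.7%. The programme of Tnc, Inhba, Timp1 and Lox was found in nearly all proliferating cells, 97.4% in control and 96.8% in Smo cKO, against 79.1% and 86.7% of comparison cells. The differences of 18.3 and 10.1 percentage points became 8.74 and 4.91 with 2 or more UMIs and 33.4 and 21.1 with 5 or more. In the depth band, with 3 or more UMIs, the difference was 8.07 percentage points in control (5.23 to 10.7) and 4.78 points in Smo cKO (1.96 to 7.41). Inhba was at log2 ratios of 0.34 and -0.12 in the band and of -0.16 and -0.32 against depth-matched cells. Inhba encodes a subunit of activin A and Lox the enzyme that crosslinks collagen.

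Proliferating cells also carried the programme of Fmod, Acan, Col11a1 and Ptn, of which Acan encodes the cartilage proteoglycan aggrecan. It was found in 21.6% in control and 23.0% in Smo cKO, against 14.6% and 24.3% of comparison cells. The difference was 7.03 percentage points in control (4.34 to 9.83) and -1.26 points in Smo cKO (-4.66 to 2.22), and in the depth band the control difference was 4.12 points (-0.301 to 8.75). Tendon markers (Tnmd, Scx, Thbs4 and Mkx) were found in 10.9% and 14.8% of proliferating cells, against 15.8% and 21.9% of comparison cells. With 2 or more UMIs the control difference was -0.502 percentage points (-3.33 to 2.44), and in the depth band the Smo cKO difference was -2.31 points (-7.11 to 2.77). Osteoblast markers were rare, at 1.31% and 1.34% against 0.807% and 2.32%. Positive cells for Cxcl12, a chemokine of perivascular and marrow stroma, made up 1.40% and 0.619% of proliferating cells, against 8.57% and 3.07% of comparison cells. With 2 or more UMIs the Smo cKO difference was -0.342 points (-2.17 to 1.60), and in the depth band the control difference was -3.95 points (-5.77 to -1.97) in place of -7.18.

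**Figure D4:**
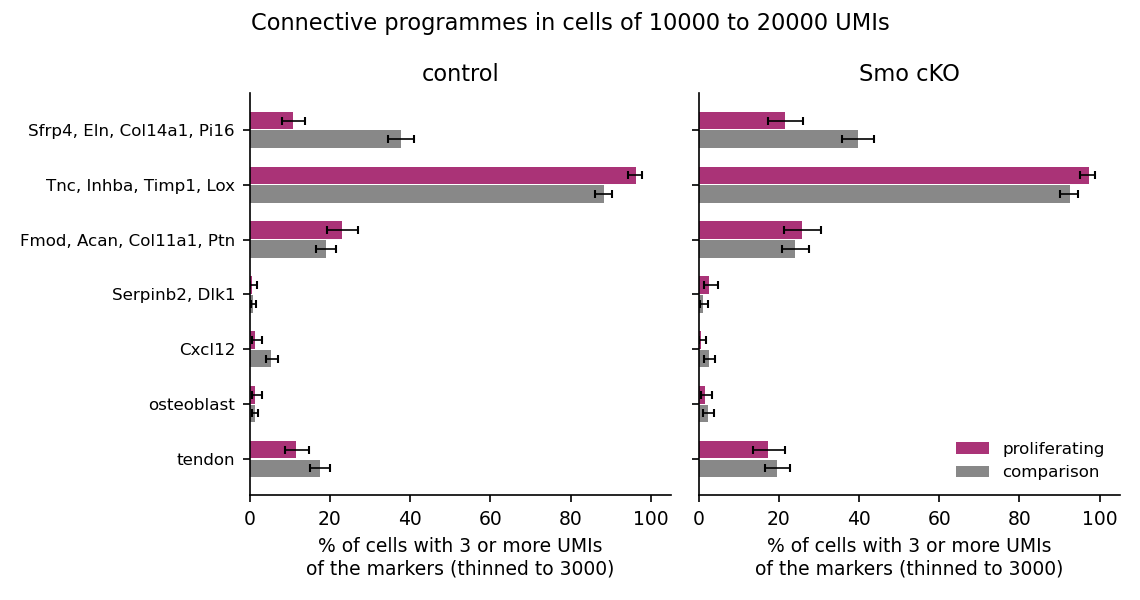
Percent of cells with 3 or more UMIs of each marker set after thinning to 3000 UMIs (x axis), for cells of 10000 to 20000 UMIs, proliferating in purple and comparison in grey, with exact binomial 95% intervals as bars, control on the left and Smo cKO on the right. The set of Sfrp4, Eln, Col14a1 and Pi16 is less frequent in proliferating cells of both libraries, and the set of Tnc, Inhba, Timp1 and Lox is at 96.3% and 97.4% in them.

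The reporter of the Cre lineage was scarce in these cells. A tdTomato UMI was found in 13 of 1147 control proliferating cells (1.13%, 0.605 to 1.93%) and in 32 of 971 Smo cKO cells (3.30%, 2.26 to 4.62%). The level was 0.536 CPM in control and 1.48 CPM in Smo cKO, against 0.579 and 1.63 CPM in comparison cells. Immune cells, which should lack the reporter, held 0.390 and 0.956 CPM, with UMIs in 0.191% and 0.541% of cells at median depths of 3355 and 3836.5 UMIs. After thinning, 1 of 1146 and 5 of 970 proliferating cells held a UMI, against 4 of 2601 and 6 of 1464 comparison cells. The immune levels rest on 2 and 7 UMIs, and a difference from that background was not detectable at this depth. Sox9 itself was at 47.5 CPM in control and 39.7 CPM in Smo cKO proliferating cells, and at 39.1 and 41.4 CPM in comparison cells. Smo, the targeted gene (chr6:29735503-29761365, plus strand), was at 17.6 CPM in control and 11.3 CPM in Smo cKO proliferating cells, a log2 ratio of -0.64 (-0.87 to -0.41). In comparison cells it was at 20.1 and 15.0 CPM, a ratio of -0.43 (-0.65 to -0.21). Counts at the end of a transcript do not show whether its floxed part is present.

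Smo cKO and control proliferating cells were then compared across all genes. Of 2637 genes at 50 CPM or more in either library, 25 (0.948%) were at least 2-fold higher in Smo cKO and 5 (0.19%) were at least 2-fold lower. The same rule called 24 genes (0.949%) higher and 9 (0.356%) lower in the comparison cells, and 12 of the 25 and 2 of the 5 were among these. None of 69 cell-division genes was called, and their log2 ratios lay between -0.52 and 0.43. At a floor of 5 CPM, the 95% interval lay above 0 for 26 of 199 cell-division genes and below 0 for 42, where 18.5% of 9109 genes lay above and 20.1% below. Dut, which removes dUTP, was the lowest at 202 CPM in control and 141 CPM in Smo cKO. Hjurp, the chaperone of Cenpa, was the highest at 64.4 and 86.8 CPM.

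Interferon-stimulated genes stood higher in the Smo cKO library in both sets of cells. All 13 measured members of the list had intervals above 0 in proliferating cells, where 18.5% of 9109 genes did. Of the 4 members tested, 3 were called higher, where 0.948% of all tested genes were. Isg15, a ubiquitin-like protein, was at 8.53 CPM in control and 149 CPM in Smo cKO, a log2 ratio of 4.13 (3.92 to 4.34), and at 11.8 and 152 CPM in comparison cells, a ratio of 3.68. Ifi27l2a was at 23.8 and 224 CPM (3.23), with 77.8 and 344 CPM in comparison cells (2.14). Bst2, tetherin, was at 38.7 and 243 CPM (2.65) and Irf7, the factor that amplifies interferon, at 3.01 and 34.7 CPM (3.53). Ifitm3, an antiviral membrane protein, made up most of the list's UMIs and had a smaller ratio, at 1387 and 2188 CPM (0.66). The summed list was at 1487 and 3014 CPM in proliferating cells and at 1454 and 3101 CPM in comparison cells. The other genes among the 8 highest were the predicted gene Gm10036 (2.15), Lgals3bp (2.10), the chemokine Cxcl10 (1.89), the surface antigen Ly6a (1.82) and the Notch target Hes1 (1.63). Beside them, globin transcripts differed by a log2 ratio of 0.72, neutrophil markers by 0.56 and satellite cell or myoblast markers by 0.53 in proliferating cells. In comparison cells the same sums differed by -0.62, 1.14 and 0.83. The part of these transcripts in the difference was not tested on its own.

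The acute phase and chemokine list was divided. Its sum was higher in Smo cKO, at 4432 CPM against 2590 CPM in control, a log2 ratio of 0.77 (0.76 to 0.79), with 3 of 8 measured members above 0 and 5 below, where 18.5% and 20.1% of all genes were. Hp, haptoglobin, was at 96.6 CPM in control and 17.5 CPM in Smo cKO proliferating cells, a log2 ratio of -2.47 (-2.63 to -2.31), and at 144 and 29.0 CPM in comparison cells. Saa3, serum amyloid A3, was at 78.9 and 21.4 CPM (-1.88). The chemokine Ccl2, in the same list, went the other way at 1049 and 2177 CPM (1.05), as did Cxcl1 at 1216 and 2040 CPM (0.75) and Il6 (0.80). Among matrix genes, Prg4, lubricin, was at 245 and 114 CPM (-1.11, against -0.50 in comparison cells), Sparcl1 at 55.1 and 25.6 CPM (-1.10 against -0.41) and Acan at 93.7 and 45.3 CPM (-1.05 against -0.23). Hist1h2ap (-0.93), Fmod (-0.84) and Ank, a pyrophosphate transporter (-0.81), came next. The Acan contrast between the sets of cells depended on depth. At 10000 to 20000 UMIs Acan was at 65.5 CPM in control and 40.4 CPM in Smo cKO comparison cells, beside 112 and 53.2 CPM in proliferating cells. Depth-matched comparison cells had 70.1 and 62.4 CPM. Eln had a ratio of 1.25 (1.16 to 1.33) in proliferating cells and 0.32 in comparison cells. Cxcl12 was at 101 and 109 CPM in proliferating cells, a ratio of 0.12 (0.03 to 0.20), whereas in comparison cells it was at 249 CPM in control and 109 CPM in Smo cKO, a ratio of -1.19 (-1.27 to -1.12). Comparison cells of 10000 to 20000 UMIs had 184 CPM of Cxcl12 in control and 103 CPM in Smo cKO, and depth-matched comparison cells 114 and 111 CPM, so the contrast was smaller in the band and absent in the matched cells. Without the barcodes found in both libraries, 22 of the 25 higher and 5 of the 5 lower genes were again called.

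**Figure D5:**
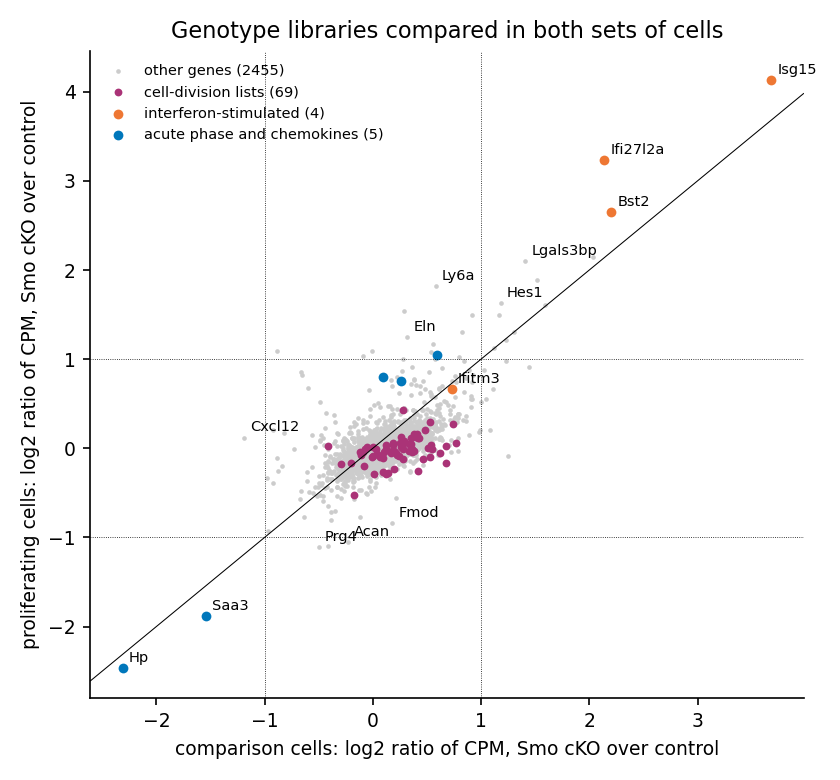
Log2 ratio of CPM in Smo cKO over control, in comparison cells on the x axis and in proliferating cells on the y axis, for genes at 50 CPM or more in proliferating cells of either library, without ribosomal protein, mitochondrial and sex-linked marker genes. The solid line marks equal ratios and dotted lines a 2-fold difference. Isg15, Ifi27l2a and Bst2 lie at the upper right and Hp and Saa3 at the lower left, while cell-division genes in purple lie within 2-fold on the y axis.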

How the data were processed

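The authors deposited raw UMI counts per gene and barcode, made with Cell Ranger 3.0.2 on mm10 per the submitters' processing notes, and the gene table holds a tdTomato feature. The study's own filter kept cells of 200 to 2000 genes, and it was not applied here, since it would remove nearly all proliferating cells. Counts were summed over cells of a set and divided by all UMIs of the set to give CPM. The 95% intervals are exact conditional Poisson for ratios, Clopper-Pearson for shares, and Newcombe for a difference between shares. A gene at 0 was set to 3 counts for the 2-fold rule. No test was run, since each genotype has 1 library. Cells were thinned to 3000 UMIs with a fixed seed. No doublet caller was run. The gate leaves out doublets with cells that hold UMIs of Ptprc, Pecam1, Myog or Rgs5. Cells with UMIs of other cell types were left out only in alternatives to the main comparison. Doublets of connective cells with each other would pass the gate and were not tested for. Python 3.11.15, numpy 2.4.6, scipy 1.17.1 and pandas 2.3.3 were used. Gene positions are from GENCODE on GRCm38.

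The members, the gene lists and the alternatives rest on earlier results of these data, which were known when they were chosen. Genes named in the text were, for each list, up to 4 of highest CPM in proliferating cells and members that went against their list, outside the lists the 10 highest and 10 lowest ratios among called genes, and for the genotype comparison the 8 highest and 8 lowest ratios, without mitochondrial, ribosomal protein, globin, immunoglobulin and sex-linked genes. Smo, Cxcl12, Sox9, tdTomato, Mki67, Top2a and Isg15 were always named. Genes outside this rule were named after their values were seen. These are Cdc20, Mcm5, Ccnb1, Pcna, Rrm2, Cdt1, Ran, Ranbp1, Tuba1a, Tubb5, Tubb6, Lsm2, Lsm3, Lsm5, Lsm8, Anln, Cep55, Ccne2, Cdkn1c, Mybl2, Rb1, Gas6, Fos, Fosb, Nr4a1, Klf2, Mfap4, Ogn, Col15a1, Igf1 and Irf7, along with the members of the S-phase and mitotic sets.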

Additional observations from a re-analysis of the deposited data

Results flagged for a closer look

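The sharing of 613 barcodes by both libraries is a signal outside the main measurement. These barcodes were kept in the main comparisons, where 73 control and 118 Smo cKO proliferating cells carried one. On the lower side their median was 602.5 UMIs, against 37455 on the higher side, in the 486 with a ratio under 5%.

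Among the named genes, 3 had ratios of proliferating over comparison cells that were of opposite sign in the libraries, with intervals apart from 0 and at least 2-fold apart. The difference between libraries was not tested. Dlk1, a Notch-like ligand of immature mesenchyme, had a log2 ratio of -1.01 in control and 0.92 in Smo cKO, at 7.13 and 34.1 CPM in proliferating cells. Serpinb2, a plasminogen activator inhibitor, had -0.73 in control and 1.19 in Smo cKO, at 5.73 and 32.6 CPM. At 10000 to 20000 UMIs the ratios were -0.10 (-0.55 to 0.33) and 1.60 for Dlk1 and -0.71 and 1.22 for Serpinb2. Against depth-matched comparison cells, the control ratio of Serpinb2 was 1.20 (-0.06 to 2.84). Few cells carried this pair: 4 of 1146 control and 21 of 970 Smo cKO proliferating cells held 3 or more UMIs after thinning. Fmod, fibromodulin, had 0.12 in control and -0.90 in Smo cKO, at 140 and 78.1 CPM in proliferating cells. Its ratios were 0.37 and -0.40 at 10000 to 20000 UMIs, and -0.09 (-0.26 to 0.08) and -1.23 against depth-matched comparison cells, so the control sign was lost there.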

How the results depend on the processing

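The share of proliferating cells moved with the rule. At 3 UMIs of the 4 genes it was 26.9% in control and 32.2% in Smo cKO, and at 10 UMIs 13.7% and 16.4%. With Mki67, Top2a, Nusap1 and Cenpf in place of the 4 genes it was 14.2% and 16.8%. A collagen gate of 0.5% gave 26.5% in Smo cKO, and one of 2% gave 16.5% in control and 20.7% in Smo cKO. A minimum of 5000 UMIs gave 23.1% and 27.7%, thinning 15.5% and 18.3%, and leaving out barcodes of both libraries 22.9% in Smo cKO. A limit of 200 to 2000 genes left 1.37% and 1.74%, 0.363 percentage points apart. The difference turned to -0.462 points when standardised for depth (23.0% and 22.6%), and to -4.43 points (-7.65 to 0.949) when cells with any UMI of Lyz2, Tyrobp, Cdh5, Pax7, Myod1 or Hbb-bs were left out (8.46% and 4.03%). That last choice left only 61 control and 5 Smo cKO proliferating cells, and with so few cells it called 687 genes higher and 287 lower in Smo cKO.

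A floor of 20 CPM gave 201 genes higher and 86 lower in proliferating cells and 54 higher and 10 lower in Smo cKO, and one of 100 CPM gave 42, 32, 15 and 1. Lower calls fell to 13 with comparison cells matched on depth and to 17 in the band of 10000 to 20000 UMIs, the latter chosen after seeing the data. After thinning, the tdTomato difference between proliferating and comparison cells was -0.0665 points in control and 0.106 points in Smo cKO, from 0.590 and 1.68. Of 120 alternative values, 63 moved by less than their interval or 1.5-fold, 54 moved, and 3 turned in sign from a value whose interval lay apart from 0. Among the 42 values of the connective programmes 20 moved. Of those programmes, 2 differences whose own intervals cross 0 also changed sign: that of Fmod, Acan, Col11a1 and Ptn in Smo cKO was 0.673 points with 2 or more UMIs and 1.66 points in the depth band, and that of Serpinb2 and Dlk1 in control was 0.0104 points with 5 or more UMIs. No paired analysis was possible because each genotype has 1 library.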

Other observations

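Genes called higher in proliferating cells but outside every list, 38 in all, included factors of nuclear transport (Ran, Ranbp1 and Rangap1), the tubulins Tuba1a, Tubb5 and Tubb6, and the RNA-binding Lsm2, Lsm3, Lsm5 and Lsm8. They were picked out after their values were seen. Ran (1.09 and 0.97), Ranbp1 (1.04 and 0.86) and Tuba1a (1.05 and 0.98) were not called in the depth band. Against depth-matched cells Ran (1.07 and 0.87), Ranbp1 (0.96 and 0.83), Tuba1a (0.94 and 0.75) and Lsm8 (0.87 and 1.15) were not called. The other genes named here were called higher in both checks. Of the genes called higher, 73 had a promoter window, and 50.7% of these held a CHR, against 21.2% of 33 windows of genes called lower and 13.99% of 2037 windows of all tested genes. The 73 windows include 3 of the rule genes, 2 of them with a CHR. Since the cells were chosen by late S-phase to mitotic genes, these shares are a description and not a test.

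Cells with the Sfrp4, Eln, Col14a1 and Pi16 programme were seldom proliferating. At equal depth, 4.54% of such cells in control (3.67 to 5.54%) and 10.6% in Smo cKO (8.99 to 12.4%) held 2 or more UMIs of the 4 genes of the rule, against 22.5% and 22.4% of connective cells without the programme. For cells with the Cxcl12 programme the shares were 4.42% of 317 cells and 5.13% of 78, against 16.2% and 18.6% of cells without it, but with 2 or more Cxcl12 UMIs the Smo cKO share was 16.6% of 205 cells against 18.4%. Cells with osteoblast markers had shares of 18.2% of 55 and 18.0% of 61.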
